A study of Mus musculus with 18 samples.

Results

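The 9 genes described here, Mbp, Mobp, Mag, Mog, Cldn11, Cnp, Ermn, Aspa and Olig1, are expressed mainly by oligodendrocytes, the cells that wrap axons of the central nervous system in myelin. Every probe set that the array annotation pairs with exactly 1 of these symbols was taken, whatever its value, which gave 23 probe sets of the 34945 with a single symbol and 9 genes of 18193. Mbp had 8 probe sets, Mobp 5, Cnp 3, Ermn 2 and the other genes 1 each.

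Myelin is built in compact layers, held together inside by basic proteins such as Mbp and Mobp, and is joined to the axon and to itself by surface proteins such as Mag, Mog and the tight junction protein Cldn11. Oligodendrocytes form it under the control of transcription factors of the Olig and Sox families and of Myrf, and support the axon with enzymes such as Aspa. In the cerebellum most myelin lies in the white matter, around the axons of Purkinje cells and around fibres that enter from the brainstem.

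The study, on the last coding exon of the calcium channel Cav2.1 and spinocerebellar ataxia type 6, measured RNA of the cerebellum on 18 Affymetrix mouse arrays, 3 in each of 6 groups, all from C57BL/6 mice. MPI 118Q/118Q knockin mice, Sca6 CtmKO/CtmKO mice and MPI 11Q/11Q knockin mice, each carrying its allele on both chromosomes, were set against wild-type littermates of their own line. Below they are called 118Q knock-ins, Ctm knockouts and 11Q knock-ins. The labels used here state an age, 6 weeks, for 118Q knock-ins and Ctm knockouts and none for the other groups. The alleles are present in the whole animal and the arrays measured whole tissue, so fewer oligodendrocytes and less RNA per oligodendrocyte cannot be told apart. The labels do not say more of the replicates than that they are separate samples, so every p-value measures the spread between these samples, which may be technical in part.

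All values are log2 expression values as deposited, and a change is the mean of the mutant arrays minus the mean of their wild-type littermates, so that 1 stands for a doubling. A change was called when its adjusted p from limma, with Benjamini-Hochberg adjustment over all 34945 probe sets, was below 0.05. The unit of every test is the probe set, and values of different probe sets were not set against each other, since brightness depends on the probes. Array medians lay between 2.38 and 2.55, and pairs of arrays correlated at 0.977 to 0.995 over all probe sets. Of the 23 probe sets, 21 lay above the array median on all 18 arrays, Mbp 1425263_a_at did so on 17 and Mobp 1441308_at on 0. As a check of the labelled tissue, Gabra6, a receptor subunit typical of cerebellar granule cells, averaged 10.26 to 10.48 in the 6 groups.

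The promoters of 4 members are shown because the results turn on them or because they carry the searched motifs. Mobp had the largest set of differences in the 118Q line, and Mag holds motifs for both Sox proteins and Myrf. Wild-type levels of Cldn11 and of Ermn probe set 1436578_at differed between lines in opposite directions. The sequences are the 250 bases before the annotated start in RefSeq, assembly GRCm38.p6, in the direction of the gene. They are unrelated to where the array probes lie. Capitals mark matches, on either strand, to a Sox core (ACAANG), a Myrf motif (CTGGNAC) or an E-box of the kind Olig proteins bind (CANCTG).
Mobp promoter, chr9:120149492-120149741, plus strand: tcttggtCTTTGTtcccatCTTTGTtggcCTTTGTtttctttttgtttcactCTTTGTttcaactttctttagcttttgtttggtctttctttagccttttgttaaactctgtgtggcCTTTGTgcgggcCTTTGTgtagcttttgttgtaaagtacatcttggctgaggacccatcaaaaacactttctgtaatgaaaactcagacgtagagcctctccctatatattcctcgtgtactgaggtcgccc
Ermn promoter, chr2:58052865-58053114, minus strand: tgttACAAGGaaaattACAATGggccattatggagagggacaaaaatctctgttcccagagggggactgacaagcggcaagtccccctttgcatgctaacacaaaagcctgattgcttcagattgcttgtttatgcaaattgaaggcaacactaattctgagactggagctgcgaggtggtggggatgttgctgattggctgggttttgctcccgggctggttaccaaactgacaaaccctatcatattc
Cldn11 promoter, chr3:31149670-31149919, plus strand: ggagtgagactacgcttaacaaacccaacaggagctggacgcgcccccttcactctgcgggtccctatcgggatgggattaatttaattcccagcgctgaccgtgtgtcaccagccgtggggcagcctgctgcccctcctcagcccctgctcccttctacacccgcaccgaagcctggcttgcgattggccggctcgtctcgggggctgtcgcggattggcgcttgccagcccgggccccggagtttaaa
Mag promoter, chr7:30914923-30915172, minus strand: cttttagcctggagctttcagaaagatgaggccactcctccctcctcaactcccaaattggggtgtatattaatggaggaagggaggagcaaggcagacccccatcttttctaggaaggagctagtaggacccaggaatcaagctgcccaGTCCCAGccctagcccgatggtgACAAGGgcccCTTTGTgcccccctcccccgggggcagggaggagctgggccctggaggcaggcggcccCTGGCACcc
Windows were at hand for 7 of the 9 members, the others being Mbp and Olig1. ACAANG occurred in at least 1 window of 5 of these 7 genes (Cnp, Ermn, Mag, Mobp and Mog), against 36.3% of all 32851 promoter windows of this length. CTGGNAC occurred in 3 of 7 (Cnp, Mag and Mog), against 16.1% of windows, and CANCTG in 3 of 7 (Aspa, Cnp and Mag), against 44.8%. Mag has 3 windows in the table, so it had more chances of a match than the others. The Mobp window held 6 matches to ACAANG, all on the opposite strand as CTTTGT, and the Cldn11 window none of the 3 motifs. A match is a run of letters and was not tested as a binding site.

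In the 118Q line, the myelin genes stood higher in knock-ins than in wild-type littermates for most probe sets, but no difference passed the test. Of the 23 probe sets, 0 were called, against 0.558% of all probe sets tested. The change was positive for 21 of 23, against 57.4% of all probe sets, with a median of 0.25, against 0.034 over all. The 23 probe sets belong to 9 genes and were read on the same arrays, so they are not separate observations. With the brightest probe set of each gene the median was 0.12. The lowest adjusted p among the 23 was 0.0711, and 5 had an unadjusted p below 0.05, against 14.1% of all probe sets. In 5 of 23 all knock-ins lay above all wild types, against 10.4% of all probe sets, and in 0 did they all lie below, against 5.88%.

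**Figure D1:**
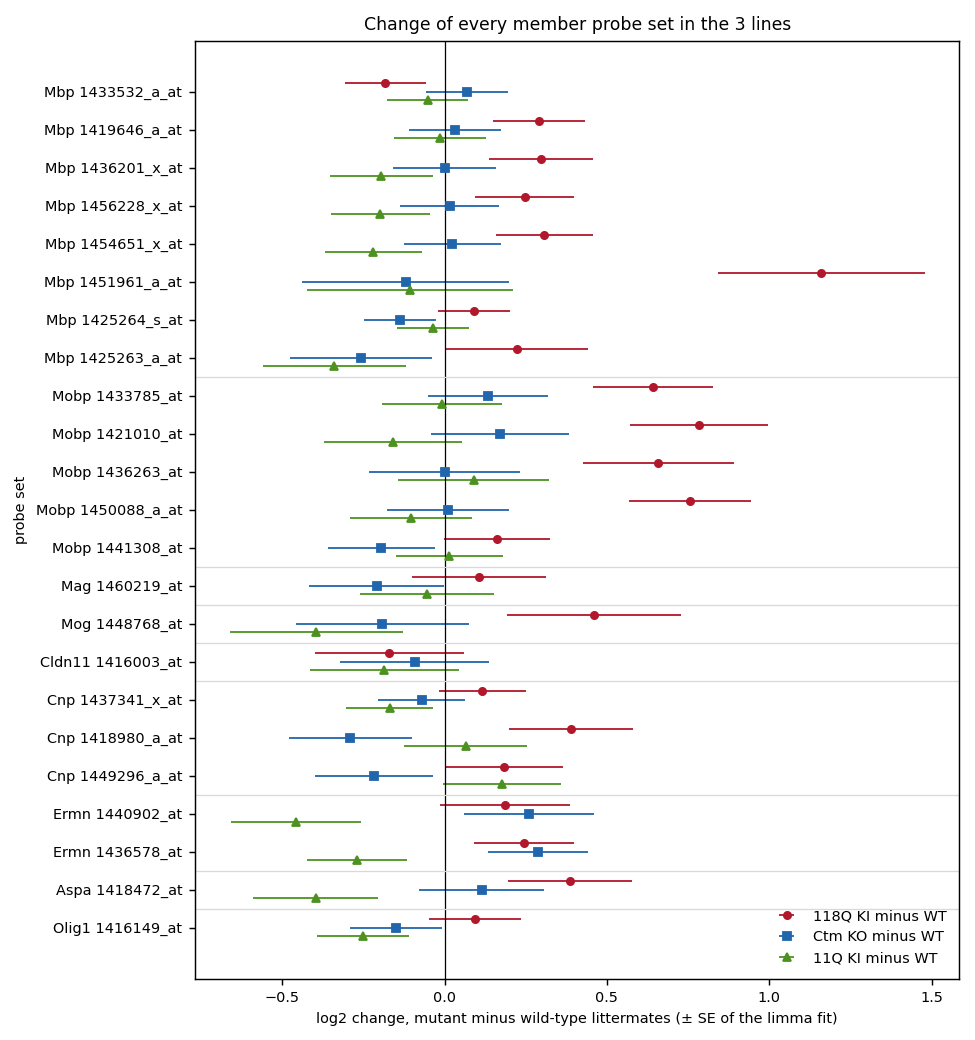
Change of each of the 23 probe sets in each line, on a log2 scale (x axis), with bars of 1 standard error of the limma fit. Red circles are 118Q knock-ins minus wild types, blue squares Ctm knockouts minus wild types and green triangles 11Q knock-ins minus wild types. The 4 Mobp probe sets above the array median and Mbp 1451961_a_at lie farthest to the right, at 0.64 to 1.16 in the 118Q line, and most green triangles lie left of 0.

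Mobp encodes an abundant basic protein of compact myelin, and 4 of its 5 probe sets had the most regular differences in the 118Q line. Mobp 1450088_a_at read 6.968, 7.002 and 7.207 in 118Q knock-ins, against 6.267, 6.822 and 5.821 in their wild types. Every knock-in lay above every wild type. The change was 0.76 (SE 0.19, 95% interval 0.36 to 1.15), with a limma adjusted p of 0.0711. Mobp 1421010_at read 8.39, 8.57 and 8.68 in knock-ins, against 7.73, 8.38 and 7.17 in wild types, again without overlap, a change of 0.78 (SE 0.21, limma adjusted p 0.0934). Mobp 1436263_at also had no overlap, with 7.92, 7.59 and 7.64 in knock-ins against 7.02, 7.58 and 6.58 in wild types, a change of 0.66 (limma adjusted p 0.189). In each of these the second wild-type array came close to the lowest knock-in and the third wild-type array lay far below. The brightest Mobp probe set, 1433785_at, overlapped, with 10.00, 10.39 and 10.41 in knock-ins against 9.71, 10.07 and 9.09 in wild types, a change of 0.64 (limma adjusted p 0.112). The fifth, 1441308_at, lay below the array median on every array and differed by 0.16.

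Mbp, myelin basic protein, holds the inner faces of the myelin membrane together, and its 8 probe sets did not move as 1. Mbp 1451961_a_at had the largest difference of all members, with 9.25, 9.64 and 10.01 in 118Q knock-ins against 8.72, 9.21 and 7.49 in wild types. The lowest knock-in lay just above the second wild type, and the third wild type stood apart from all. The change was 1.16 (SE 0.32, 95% interval 0.49 to 1.83, 2.23-fold), with a limma adjusted p of 0.0963. The brightest probe set, Mbp 1433532_a_at, went the other way, with 11.39, 11.18 and 11.23 in knock-ins against 11.24, 11.62 and 11.48 in wild types. These groups overlapped, and the change of -0.18 had a limma adjusted p of 0.563. The other 6 Mbp probe sets had changes of 0.090 to 0.31. Of the probe sets, 3 of Mbp and 1 of Cnp carry the suffix x, with which the array's maker marks probes that can also bind other transcripts.

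At the myelin surface the 118Q groups overlapped in all 3 genes. Mag, an adhesion protein on the face of myelin next to the axon, read 7.44, 7.28 and 7.48 in 118Q knock-ins, against 7.64, 7.61 and 6.63 in wild types. Mog, an immunoglobulin-like protein of the outermost layer, read 6.34, 6.01 and 6.57 in knock-ins, against 5.35, 6.64 and 5.55 in wild types. The second wild type had the highest Mog value of the line and the other wild types the lowest. Cldn11, which forms the tight junctions between myelin layers, read 6.88, 6.00 and 6.54 in knock-ins, against 6.46, 7.22 and 6.26 in wild types. The changes were 0.11 for Mag, 0.46 for Mog and -0.17 for Cldn11, with limma adjusted p-values of 0.876, 0.469 and 0.810.

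Of the enzymes and cytoskeletal proteins, Aspa, which splits N-acetylaspartate and so supplies acetate for lipid synthesis, read 6.23, 6.08 and 6.38 in 118Q knock-ins, against 5.71, 6.07 and 5.75 in wild types. All knock-ins lay above all wild types, the lowest by a small margin, and the change of 0.39 (SE 0.19) had a limma adjusted p of 0.377. Cnp, a cyclic nucleotide phosphodiesterase of the uncompacted parts of myelin, had changes of 0.12, 0.18 and 0.39 in its 3 probe sets, with overlap in each. Ermn, a cytoskeletal protein of mature oligodendrocytes, had changes of 0.19 and 0.24. Olig1, a transcription factor of the oligodendrocyte lineage, read 7.53, 7.66 and 7.61 in knock-ins, against 7.53, 7.66 and 7.34 in wild types, a change of 0.093 (SE 0.14).

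**Figure D2:**
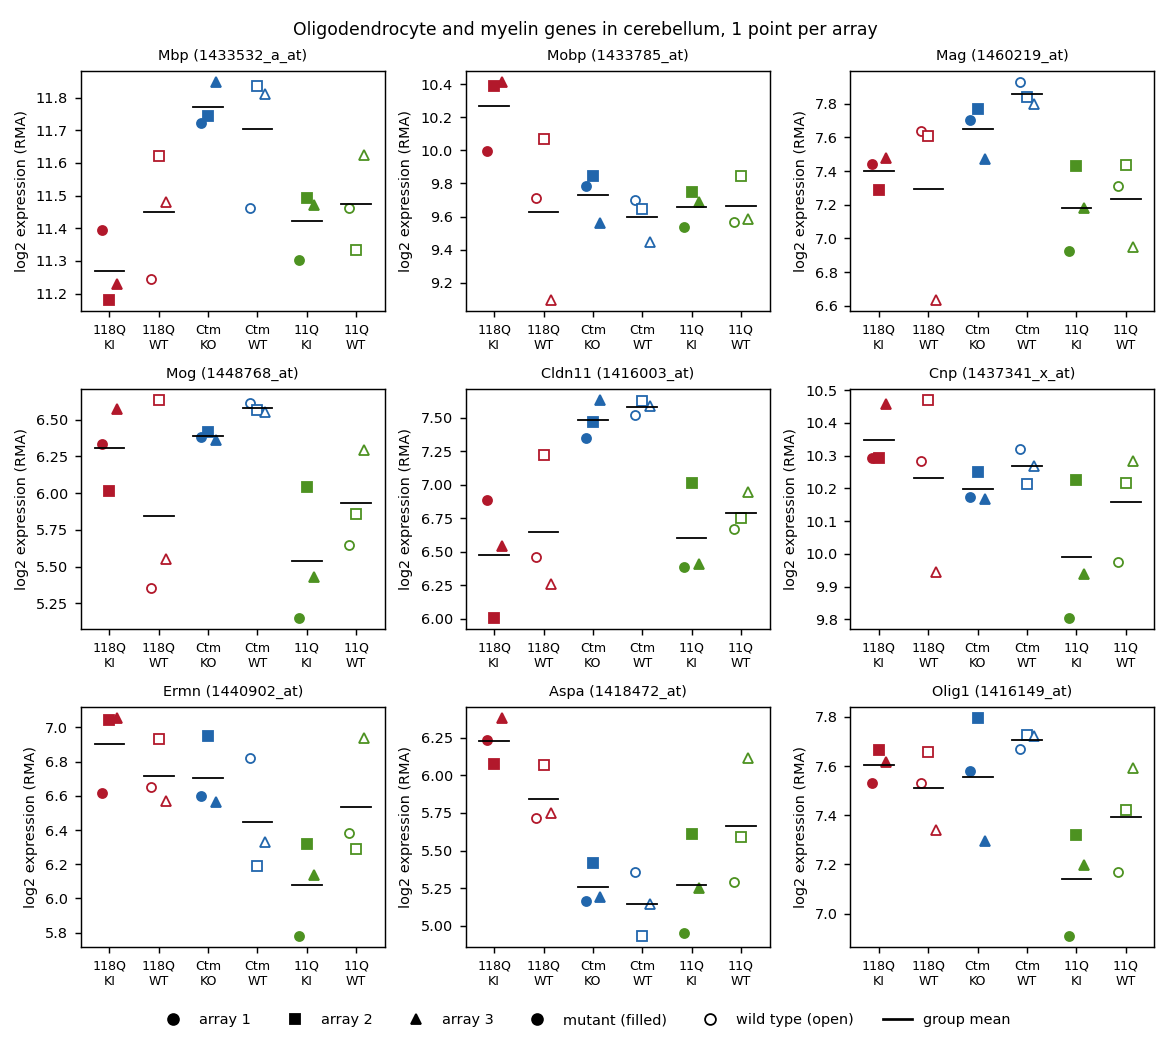
Log2 expression (y axis, its range set for each panel) of the brightest probe set of each of the 9 genes, by group (x axis), with 1 point for each array and a bar at the group mean. Filled points are mutants and open points wild types, in red for the 118Q line, blue for the Ctm line and green for the 11Q line. The third 118Q wild type, an open red triangle, lies below the other wild types of its line for Mobp, Mag, Cldn11, Cnp, Ermn and Olig1, and Cldn11 lies between 7.35 and 7.63 on all 6 Ctm arrays.

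The 118Q wild types differed among themselves more than the knock-ins did. The mean deviation of the 23 probe sets from their own averages over 18 arrays was 0.19, 0.22 and 0.37 in the 118Q knock-ins, against -0.086, 0.28 and -0.39 in their wild types. The second wild type thus stood above 2 of 3 knock-ins, and the third wild type stood below every other array but the first 11Q knock-in. This low array was the lowest of its group in 19 of 23 probe sets and the lowest of all 18 arrays in 10, while the second was the highest of its group in 21. Without the third wild type the median change was 0.16, with 18 of 23 positive and 0 called. Mag then had the opposite sign, at -0.22, and Mbp 1451961_a_at and Mobp 1433785_at came to 0.67 and 0.38.

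Without the second wild type the median change in the 118Q line was 0.37, with 22 of 23 positive, and 4 probe sets were called. These were Mobp 1450088_a_at at 1.02 (limma adjusted p 0.0166), Mobp 1421010_at at 1.09 (0.0169), Mobp 1433785_at at 0.86 (0.0347) and Mbp 1451961_a_at at 1.53 (0.0347). Without the first knock-in 2 were called, Mobp 1433785_at at 0.77 (limma adjusted p 0.0436) and Mbp 1451961_a_at at 1.35 (0.0473). None were called without any other single array of the line. Over the 6 arrays left out in turn, the median change lay between 0.16 and 0.37.

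**Figure D3:**
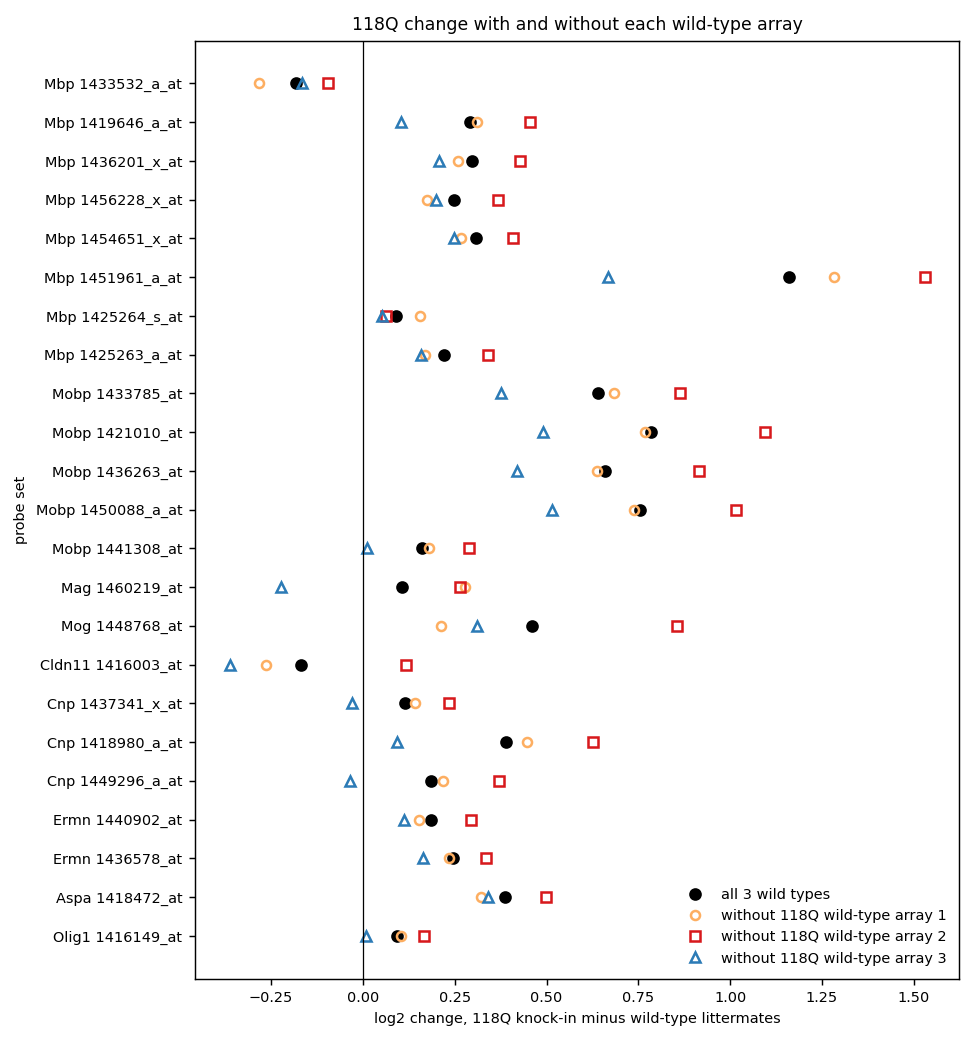
Change of each of the 23 probe sets in the 118Q line (x axis, log2, knock-in minus wild type) with all 3 wild-type arrays (black) and without the first (orange circles), the second (red squares) or the third (blue triangles). The red squares lie farthest to the right for most probe sets, and Mbp 1451961_a_at spans 0.67 to 1.53.

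A measure of RNA quality also differed in the 118Q line without overlap. The signal at the 3' end minus that at the 5' end of control probe sets for Gapdh and beta-actin averaged 0.449 ± 0.030 in 118Q knock-ins and 0.549 ± 0.060 in their wild types (SD, n = 3 each). By a two-sided exact permutation test, p was 0.1, the smallest that 3 against 3 arrays allow, and 0.3 after Benjamini-Hochberg adjustment over the 3 lines. It was highest, at 0.614, on the third wild-type array. The mean was 0.618 in Ctm knockouts and 0.614 in their wild types (exact p = 0.9), and 0.674 in 11Q knock-ins and 0.640 in their wild types (exact p = 0.7). With this measure as a covariate, the median change of the members in the 118Q line was 0.18, against 0.25 without it, and 1 of all probe sets was called, against 195 without it. Beyond these values its part in the differences was not tested.

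In the Ctm line, the probe sets of the myelin genes showed no common direction. Of the 23 probe sets, 0 were called, against 0.916% of all, and 0 had an unadjusted limma p below 0.05, against 11% of all. The change was positive for 12 of 23, against 40.1% of all, and the median was 0.00017, against -0.041 over all probe sets. With the brightest probe set of each gene the median was -0.070, and with probe sets averaged by gene -0.092. The changes lay between -0.29 and 0.29, and the lowest adjusted p was 0.530. All knockouts lay below all wild types in 3 of 23 probe sets, against 12.4% of all probe sets, and above them in 1, against 7.01%.

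The probe sets without overlap in the Ctm line were those of Mag, Mog, Cnp and Ermn. Mag read 7.70, 7.77 and 7.47 in Ctm knockouts, against 7.93, 7.84 and 7.80 in wild types, a change of -0.21 (SE 0.21, 95% interval -0.64 to 0.23). Mog read 6.38, 6.42 and 6.36 in knockouts, against 6.61, 6.57 and 6.56 in wild types, a change of -0.19 (95% interval -0.75 to 0.37). In both genes the arrays of each group lay close together, and the interval is wide because the fit shares its estimate of the spread over all 6 groups. Cnp 1418980_a_at read 8.01, 8.25 and 8.18 in knockouts, against 8.35, 8.40 and 8.55 in wild types, a change of -0.29 (SE 0.19, limma adjusted p 0.639). Ermn 1436578_at was higher in every knockout, with 5.59, 5.79 and 5.49 against 5.46, 5.21 and 5.34 in wild types. Its change was 0.29 (SE 0.15, limma adjusted p 0.530), and that of Ermn 1440902_at was 0.26 with overlap. Mobp lay between -0.19 and 0.17 and Mbp between -0.26 and 0.069 in this line.

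In the 11Q line, most myelin probe sets were lower in knock-ins, again without a call. Of the 23 probe sets, 0 were called, as were 0% of all 34945, with 1 member and 5.24% of all at an unadjusted limma p below 0.05. The change was positive for 4 of 23, against 47.3% of all, and negative for 19, with a median of -0.16, against -0.011 over all probe sets. In 0 of 23 did all knock-ins lie above all wild types, against 4.28% of all probe sets, and in 0 did they all lie below, against 5.61%. Ermn 1440902_at read 5.78, 6.32 and 6.14 in 11Q knock-ins, against 6.38, 6.29 and 6.94 in wild types. The groups overlapped by 1 array on each side, and the change of -0.46 (SE 0.20) had a limma adjusted p of 0.909. Aspa read 4.95, 5.61 and 5.25 in knock-ins, against 5.29, 5.59 and 6.12 in wild types, a change of -0.40 (SE 0.19). Mog had a change of -0.39 (SE 0.27) and Olig1 of -0.25 (SE 0.14), and each had its lowest value on the first knock-in.

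The first 11Q knock-in array was the lowest of its group in 21 of 23 probe sets and the lowest of all 18 arrays in 8. The mean deviation of the 23 probe sets was -0.43, 0.012 and -0.25 in the 11Q knock-ins, against -0.22, -0.040 and 0.019 in their wild types. Without the first knock-in the median change was -0.063 with 10 of 23 positive, and without the third wild type it was -0.088 with 4 positive. Without the second knock-in it was -0.28 with 1 positive. Markers of the hindbrain outside the cerebellum, among them Hox genes, had a mean deviation of -0.11 to -0.093 on the 11Q knock-ins, against -0.075 to 0.44 on their wild types, where the third wild type held the high value. Choroid plexus markers lay at -2.26 to 0.70 on 11Q knock-ins and at 0.82 to 1.28 on their wild types, and all 9 measured were lower in knock-ins without a call. The median change of the members in the 11Q line was -0.16 as reported, -0.031 with the hindbrain list as a covariate and -0.28 with the choroid plexus list as a covariate. Beyond these values the part of either list was not tested.

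**Figure D4:**
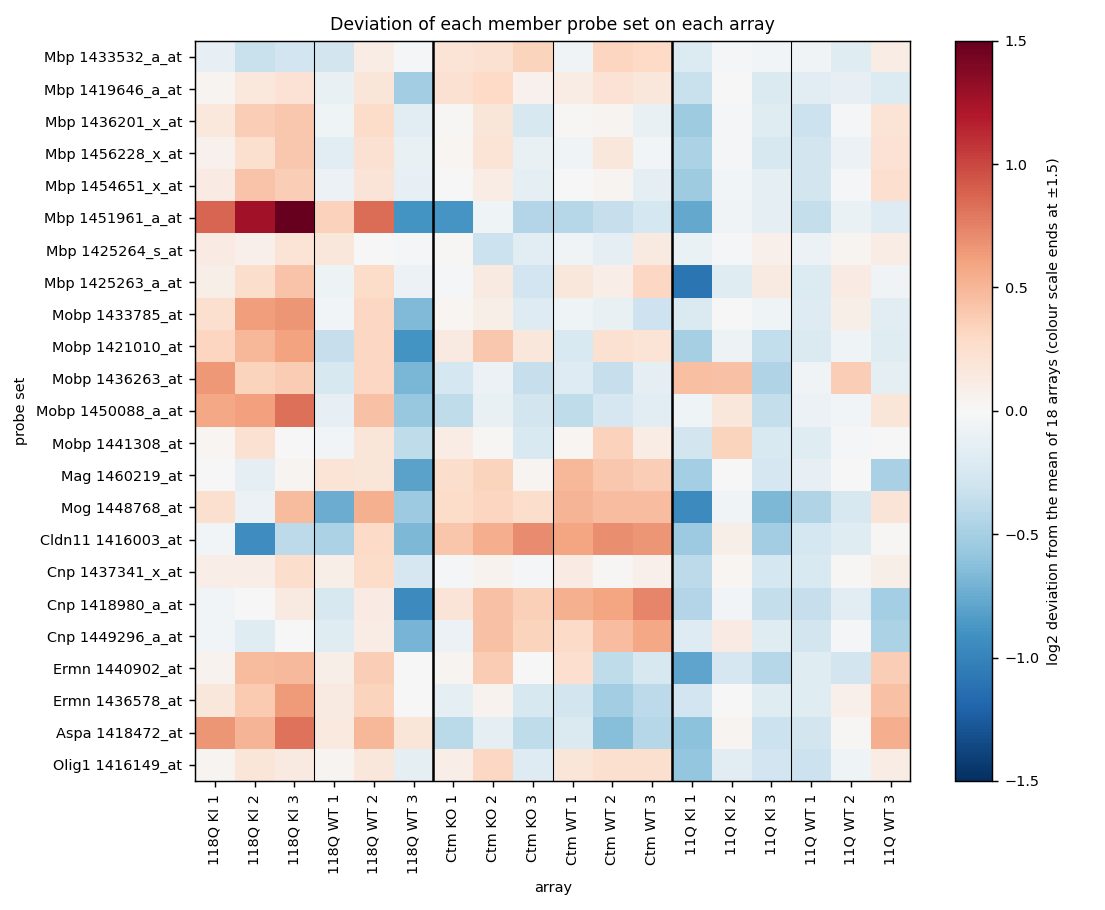
Deviation of each of the 23 probe sets (rows) on each of the 18 arrays (columns) from its own mean over all arrays, in log2 (colour, scale ends at 1.5 in either direction). Thick lines part the 118Q, Ctm and 11Q lines and thin lines part mutants, at the left, from wild types. The third 118Q wild type and the first 11Q knock-in are blue in most rows, the third 118Q knock-in is red in most, and Cldn11 and Cnp 1418980_a_at are red on all Ctm arrays.

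The change itself was also compared between lines. For the change in the 118Q line minus that in the Ctm line, 0 of 23 probe sets were called, against 1.63% of all, with 19 of 23 positive, against 59.8% of all, a median of 0.30 and a lowest adjusted p of 0.148. For the 118Q line minus the 11Q line, 0 were called, as were 0% of all, although 22 of 23 were positive, against 56.2% of all, and 10 had an unadjusted limma p below 0.05, against 8.98% of all. The median of these differences was 0.49 and their lowest adjusted p 0.387. For the Ctm line minus the 11Q line 0 were called, against 0% of all, with a median of 0.10 and 16 of 23 positive, against 44.5%. These 3 comparisons share groups, so they are not independent of each other. A difference between 2 lines had a standard error of 0.16 to 0.45 in these probe sets. With 3 arrays in a group even differences of more than 2 standard errors could miss the call, as did Mbp 1451961_a_at at 1.28 (SE 0.45, limma adjusted p 0.148) between the 118Q and Ctm lines.

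The wild types of the 3 lines also differed among themselves in some members. An F test across the wild types of all lines called 5 of 23 probe sets, against 10.6% of all probe sets. That background includes dim probe sets, while most members are bright. With the dimmer probe sets left out, 22 of the 23 stayed and 5 were called, against 19.8% of the 17472 then tested. The members were thus called about as often as other bright probe sets. The 5 called with all probe sets tested belong to Cldn11, Cnp, Ermn and Aspa. They split by direction: Cldn11, Cnp 1418980_a_at and Cnp 1449296_a_at were highest in Ctm wild types, Ermn 1436578_at and Aspa lowest. The other Ermn probe set, 1440902_at, was not called (limma F test adjusted p 0.644). It averaged 6.72, 6.45 and 6.54 in 118Q, Ctm and 11Q wild types. Cldn11 averaged 6.65 ± 0.51 in 118Q wild types, 7.58 ± 0.052 in Ctm wild types and 6.79 ± 0.14 in 11Q wild types (SD, n = 3 each). Cnp 1418980_a_at averaged 7.46 ± 0.54, 8.44 ± 0.10 and 7.47 ± 0.17 in wild types of the 118Q, Ctm and 11Q lines (SD, n = 3 each). For Cldn11 every Ctm wild type lay above all 6 others, and the same was true of Cnp 1418980_a_at. Ermn 1436578_at averaged 5.89 ± 0.17, 5.34 ± 0.12 and 5.85 ± 0.31, and Aspa 5.84 ± 0.19, 5.14 ± 0.21 and 5.67 ± 0.42, in the same order of lines.

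Between Ctm and 11Q wild types, 4 of 23 were called, against 13% of all probe sets. Of these, 3 were higher and 1 lower in the Ctm line, against 5.74% and 7.23% of all. The differences were 0.96 for Cnp 1418980_a_at (SE 0.19, limma adjusted p 0.00333), 0.71 for Cnp 1449296_a_at (0.0159), 0.79 for Cldn11 (0.0303) and -0.51 for Ermn 1436578_at (0.0373). Between 118Q and Ctm wild types, 5 of 23 were called, against 9.81% of all, with 3 lower and 2 higher in the 118Q line, against 4.13% and 5.67%. These were Cnp 1418980_a_at at -0.98 (limma adjusted p 0.00385), Cldn11 at -0.93 (0.0160), Cnp 1449296_a_at at -0.70 (0.0206), Aspa at 0.70 (0.0277) and Ermn 1436578_at at 0.55 (0.0314). The wild types of the 118Q and 11Q lines had 0 calls among the 23, as among all probe sets. The third Cnp probe set, 1437341_x_at, was not called in any of these, so the probe sets of Cnp disagree. It gave 0.11 for Ctm minus 11Q wild types and -0.035 for 118Q minus Ctm wild types. Ermn 1440902_at was not called in any of these either, at -0.090 and 0.27 in the same comparisons.

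Of these calls, those of Cnp 1418980_a_at alone held in each comparison when any 1 array was left out, with a highest F-test adjusted p of 0.0296 without the third Ctm wild type. Without the first, the second or the third Ctm wild type, the F-test adjusted p of Cldn11 came to 0.0614, 0.0879 or 0.0901. That of Cnp 1449296_a_at came to 0.113 without the third Ctm wild type and 0.0762 without the second. That of Ermn 1436578_at reached 0.171 and that of Aspa 0.209 without the second Ctm wild type, and both lost the call without several other single arrays, among them the second 118Q and the second 11Q wild type. The labels give no scan time or hybridisation batch, so the line and any batch it was processed in cannot be told apart.

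The same lines were then compared in the mutants, a comparison added after the values had been seen. By the F test over the 3 mutant groups, 13 of 23 probe sets were called, against 20% of all. This share and those below include dim probe sets, and no share over bright ones alone was computed for the mutants. Of Ctm knockouts minus 11Q knock-ins, Cldn11 alone of the 23 was called, against 3.94% of all, at 0.88 (SE 0.23, limma adjusted p 0.0376), beside 0.79 in the wild types. Cnp 1418980_a_at differed by 0.61 (limma adjusted p 0.0789), below its 0.96 in wild types. Ermn 1436578_at and Aspa were lower in Ctm knockouts than in 118Q knock-ins. For 118Q knock-ins minus Ctm knockouts they stood at 0.51 (limma adjusted p 0.0286) and 0.97 (0.00229). For Ctm knockouts minus 11Q knock-ins they stood at 0.048 and -0.012, without a call. The other Ermn probe set, 1440902_at, gave 0.20 (limma adjusted p 0.535) and 0.63 (0.0836) in the same comparisons, not called in either. The sign was the same in both genotypes for 19 of 23 probe sets, and the test of whether this line difference itself differed between genotypes, given above as the Ctm line minus the 11Q line, called 0 of 23. Between 118Q knock-ins and Ctm knockouts 8 of 23 were called, against 18.5% of all, 6 of them higher in 118Q knock-ins and 2 lower, among them Cldn11 at -1.01 (limma adjusted p 0.00565). Between 118Q and 11Q knock-ins 10 of 23 were called, against 8.63% of all, and all 10 were higher in 118Q knock-ins. Those 10 belong to Mbp, Mobp, Ermn, Aspa and Olig1, with several probe sets each of Mbp, Mobp and Ermn. The labels used here state no age for 11Q knock-ins, so age may differ in this comparison. The RNA quality measure was 0.415 to 0.473 on 118Q knock-ins, against 0.599 to 0.716 on 11Q knock-ins and 0.558 to 0.712 on Ctm knockouts. Its part in the calls between mutants was not tested. The 11Q knock-ins also include the array that was lowest of its group in 21 of 23 probe sets, and the calls are not given without it. The 10 include Mbp 1451961_a_at at 1.58 (limma adjusted p 0.00734), Aspa at 0.96 (0.00694), Ermn 1440902_at at 0.83 (0.0174), Mobp 1450088_a_at at 0.76 (0.0195) and Olig1 at 0.46 (0.0495).

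**Figure D5:**
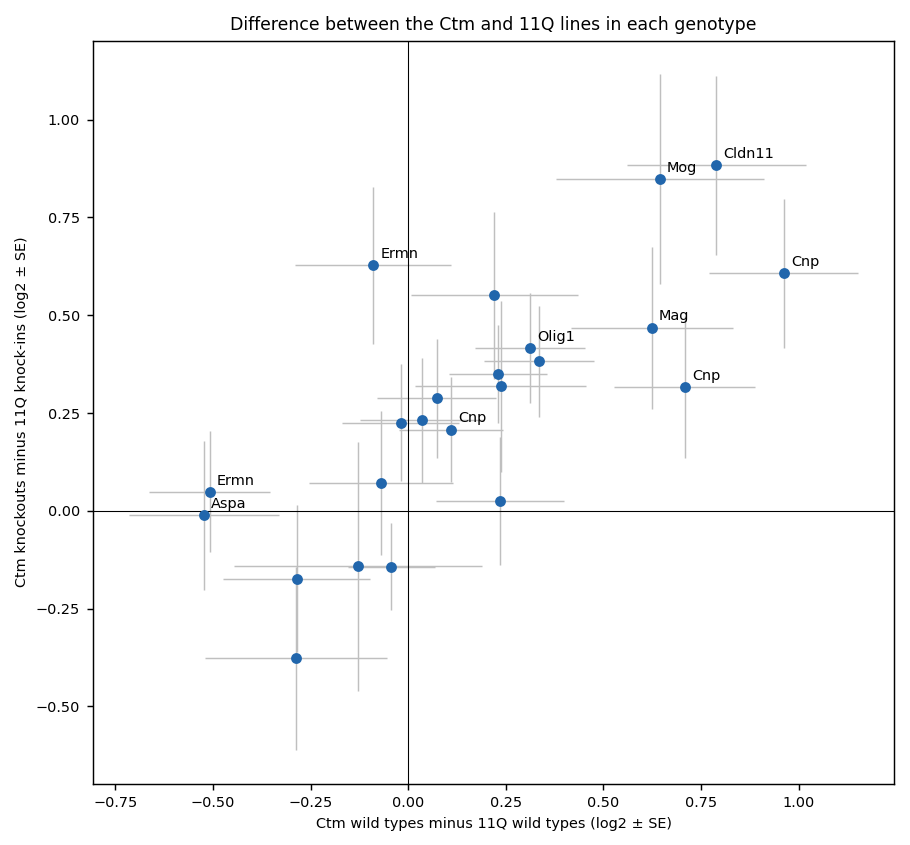
Difference between the Ctm and 11Q lines for each of the 23 probe sets, in wild types (x axis) and in mutants (y axis, Ctm knockouts minus 11Q knock-ins), both log2 with bars of 1 standard error of the limma fit. Cldn11 lies at 0.79 and 0.88, Cnp 1418980_a_at at 0.96 and 0.61, and Ermn 1436578_at and Aspa lie left of 0 in the wild types and near 0 in the mutants.

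None of the other genes listed for mature oligodendrocytes and myelin was called by limma between mutants and their wild-type littermates. Of 43 listed, 37 were measured, and 0 rose and 0 fell in each of the 3 lines. Their changes were positive for 27 of 37 in the 118Q line, 5 in the Ctm line and 2 in the 11Q line, with medians of 0.20, -0.14 and -0.17. Of all probe sets 57.4%, 40.1% and 47.3% were positive in these lines. In the Ctm line most of this list was thus lower in knockouts. Its mean deviation there was -0.066 to 0.11 on knockouts, against 0.15 to 0.17 on wild types. The list is counted by the brightest probe set of each gene. Counted in that way, the members had a median change of -0.070 in the Ctm line, against 0.00017 over their 23 probe sets. Plekhb1, a membrane-bound protein with a pleckstrin homology domain, had the smallest p of the list in the 118Q line, averaging 9.78 in knock-ins and 9.13 in wild types, a change of 0.64 (SE 0.15, limma adjusted p 0.0578). In the 11Q line the smallest p-values belonged to Serpinb1a at -0.89, Anln at -0.60 and the small heat shock protein gene Cryab at -0.68, each with a limma adjusted p of 0.909.

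The lists for earlier steps of the lineage and for the supply of lipid had no calls by limma between mutants and their wild-type littermates. Of 16 transcription factors of oligodendrocytes 0 rose and 0 fell in any line, with medians of 0.11, -0.11 and 0.0082 in the 118Q, Ctm and 11Q lines. Nkx6-2, a homeobox gene needed for regular myelin, had a change of -0.47 in the Ctm line (limma adjusted p 0.412). Tcf7l2, a Wnt effector active as oligodendrocytes differentiate, had one of -0.36 (limma adjusted p 0.38). Both were dim: Nkx6-2 averaged 1.49 in Ctm knockouts and 1.96 in wild types, below every array median. Tcf7l2 averaged 2.58 and 2.94, beside array medians of 2.38 to 2.55. Of 15 genes of oligodendrocyte precursors 0 were called, with medians of -0.012, -0.040 and -0.12. Among them Ptprz1, a receptor phosphatase also made by astrocytes, averaged 7.23 in 118Q knock-ins and 7.76 in wild types, a change of -0.54 (limma adjusted p 0.0758). Of 21 genes listed for myelin lipid synthesis 0 were called, with medians of -0.047, -0.18 and -0.052. In the Ctm line 18 of these 21 had a negative change and 3 a positive one, against 40.1% positive among all probe sets. The smallest p there was that of the acid sphingomyelinase gene Smpd1 at -0.28 (limma adjusted p 0.191). This enzyme breaks a lipid down, so the list is not of synthesis alone.

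At the node of Ranvier and the paranode, where myelin meets the bare axon, 0 of 21 genes were called between mutants and wild types. The medians were -0.045, 0.019 and 0.028 in the 118Q, Ctm and 11Q lines. Scn8a, the sodium channel of mature nodes, averaged 7.36 in 118Q knock-ins and 7.85 in wild types, a change of -0.50 (limma adjusted p 0.0650). Of 9 genes of Schwann cells and peripheral myelin, 1 rose in the Ctm line. This was Cdh19, a cadherin, which averaged 2.82 in Ctm knockouts and 1.61 in wild types, a change of 1.21 (SE 0.21, limma adjusted p 0.0121). Its difference for Ctm minus 11Q wild types was -1.76 (limma adjusted p 1.28e-04). The Ctm wild-type mean of Cdh19 lay below the lowest array median, 2.38. Its call in the Ctm line was lost without 4 of the 6 single arrays, with a limma adjusted p of 0.106 without the third Ctm wild type. The other 8 were not called and the list median was -0.084.

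Markers of other cells did move in the 118Q line beside the myelin genes. Of all probe sets 0.558% were called in this line, and 1.54% with the brightest probe set of each gene. Of 9 Purkinje cell markers 4 fell: Slc1a6, a glutamate transporter, with a change of -1.11, Dner, a Notch ligand, with -1.10, Stk17b, a kinase, with -0.96, and Car8, a carbonic anhydrase-related protein, with -0.65. Their list had 1 of 9 positive and a mean deviation of -0.82 to -0.16 on 118Q knock-ins, against 0.074 to 0.17 on wild types. Of 13 microglia markers 2 rose, Trem2 by 0.89 (limma adjusted p 0.00427) and Tyrobp, its signalling partner, by 1.03 (0.0223). Of the 13, 12 were positive, against 57.4% of all probe sets. The list stood at 0.31 to 0.71 on 118Q knock-ins, against -0.17 to 0.17 on wild types. Of 10 endothelial markers 1 fell, Flt1, a receptor for vascular growth factor, at -0.90, and 0 of 10 were positive. None of 9 granule cell markers and none of 12 markers of astrocytes and Bergmann glia were called by limma. None of 8 markers of meninges and fibroblasts were called either, with 0 of 8 positive and a median of -0.28. Each of these 7 calls was lost with the RNA quality measure as a covariate, a check added after the values had been seen, with limma adjusted p-values of 0.0516 for Trem2 to 0.124 for Car8. Their changes were then -1.08 for Slc1a6, 0.84 for Trem2 and 1.04 for Tyrobp. Without the third 118Q knock-in the calls of Slc1a6, Dner, Stk17b, Car8, Tyrobp and Flt1 were lost too, with limma adjusted p-values of 0.112 to 0.19, and Trem2 came to 0.057 without the third 118Q wild type. The part of these cells in the myelin differences was not tested.

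Across arrays, most members varied together within their groups. For the brightest probe set of each gene, deviations from the group means were positively correlated in 33 of 36 pairs, with a median r of 0.56. This is a description over 18 arrays that share their tissue block, RNA and array, with no test. Mog and Cldn11 had an r of 0.83 and Ermn and Aspa 0.81, while Mbp, by its brightest probe set, was at or below 0.58 with every other member and at -0.19 with Mag. Of probe sets outside the members, those most like the mean of the 9 brightest probe sets over 18 arrays were Pllp (Pearson r 0.93, Spearman rho 0.90), Mal (0.90 and 0.87), Marcksl1 (0.89 and 0.87), Prr18 (0.89 and 0.80) and Grb14 (0.87 and 0.80). Pllp and Mal, which encode related membrane proteins of myelin, stand in the list of other myelin genes. Within groups alone these 5 had an r of 0.79 to 0.90.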

How the data were processed

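RNA of 18 samples was measured on 1 array each. The authors deposited log2 expression values for each probe set, summarised with RMA per the submitters' processing notes, version not given. The zero point of the scale, the background step and scan batches are not given in the sources used here. Of 45101 probe sets, 64 are controls and 10092 have several symbols or none in the platform annotation, which can be old. The other 34945 were tested, with no filter on dim ones.

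Two-sided moderated tests came from limma 3.58.1 (R 4.3.3), with a mean for each of 6 groups in lmFit and a constant prior in eBayes (12 residual and 5.88 prior degrees of freedom). P-values were Benjamini-Hochberg adjusted over all 34945, with a threshold of 0.05. The fit was tested on simulated data. Precision is limited by having 3 arrays in a group.

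The members and the 14 lists were chosen with earlier results of these data known. Lists held 224 symbols, of which 204 were measured and the others were not analysed here. The brightest probe set stood for a list gene. A mean deviation on an array is the mean, over the genes of a list or the members, of the difference from each one's average over 18 arrays. All members are named, as are up to 4 genes per list with the smallest p in any line, and the 5 probe sets most correlated with the mean of the members. Alternatives covered probe set choice, filters, normalisation, weights, covariates, controls and single arrays left out. Figures were drawn with matplotlib 3.10.9.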

Additional observations from a re-analysis of the deposited data

Results flagged for a closer look

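Groups of 3 arrays were too small for a test of single arrays that stand apart. No member's change differed between lines by a call of limma. Of the genes named from the lists, 7 had a change in the 118Q line that differed from that in the Ctm line. Only named list genes, chosen by the smallest p in any line, were looked at, so this is not a count over the lists. In this comparison 1.63% of all probe sets were called, and 2.93% with the brightest probe set of each gene. The precursor gene Tmem176b had a difference of 0.777 (SE 0.173, limma adjusted p 0.0372), from changes of 0.41 in the 118Q line and -0.37 in the Ctm line, neither of them called. Of the Purkinje cell markers, Slc1a6 had a difference of -1.01 (limma adjusted p 0.0497) and Stk17b of -0.929 (0.0372). Of the microglia markers, Trem2 had 0.779 (limma adjusted p 0.0276), Laptm5 0.806 (0.0408), Cd68 1.45 (0.0372) and Tyrobp 1.44 (0.0192). With the RNA quality measure as a covariate 0 of these 7 calls held, with limma adjusted p-values of 0.0582 for Tyrobp to 0.111 for Slc1a6, and 0 of 7 held through every array left out in turn.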

How the results depend on the processing

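As reported above, 0 members were called in each line and 5 in the F test over wild types, with 195, 320 and 0 of all probe sets in the 118Q, Ctm and 11Q lines, 570 in 118Q minus Ctm and 3713 in the F test. In the 118Q line 1 member was called with the dimmer 50% left out or with trend and robust settings (Mobp 1450088_a_at in both) and 1 with array weights (Mbp 1451961_a_at). With all 9 wild types as control 6 members were called, and 4 with the 6 wild types of the 118Q and 11Q lines. That last control called 2 members in the Ctm line, with the sign turned: Cldn11 at 0.77 (limma adjusted p 0.0228) and Cnp 1418980_a_at at 0.68 (0.0169). By construction it carries the difference between the lines' wild types. The F test called 2 members with the brightest probe set or with probe sets averaged by gene, 3 with array medians centred and 13 in the mutants.

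Of all probe sets, the 118Q line had 491 calls without the dimmer 50%, 412 with trend and robust settings, 1681 with array weights, 298 with quantile normalisation, 1 with the RNA quality covariate, 0 from its 6 arrays alone, and 3246 and 2194 with the controls of 9 and 6 wild types. The Ctm line had 169 with the brightest probe set and 176 with gene means, which are 0.929% and 0.967% of the 18193 then tested, against 0.916% of 34945, and 492 without the dimmer 50%, 1028 with array weights, 2 from 6 arrays alone, 704 and 3456 with those controls, and 5 without its wild types 2 and 3. The 11Q line had 3 with trend and robust settings, 5 with array weights, 5 with medians centred, 4 from 6 arrays alone and 22 with 9 wild types. For 118Q minus Ctm there were 1239 without the dimmer 50%, 2205 with array weights and 3 with the RNA quality covariate. With array weights 118Q minus 11Q had 5 and Ctm minus 11Q 153, and Ctm minus 11Q had 1 with gene means. The F test had 1779 with the brightest probe set and 1487 with gene means (9.78% and 8.17% of those tested, against 10.6%) and 6990 in the mutants. The median member change in the Ctm line, 0.00017, was -0.092 with gene means and with the choroid plexus covariate. That in the 11Q line, -0.16, was -0.011 with array weights, -0.031 with the hindbrain covariate and -0.28 with the choroid plexus covariate, and that in the 118Q line, 0.25, was 0.12 with the brightest probe set and 0.18 with the RNA quality covariate. The cause of the other shifts was not tested.

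Leaving out 1 array at a time gave 0 to 4 members called in the 118Q line, 0 in the Ctm and 11Q lines, 0 to 1 in 118Q minus Ctm and 1 to 6 in the F test. The counts over all probe sets ran from 1 to 1078 in the 118Q line, 4 to 796 in the Ctm line, 0 to 2 in the 11Q line, 3 to 1248 in 118Q minus Ctm, 0 to 89 in 118Q minus 11Q, 0 to 489 in Ctm minus 11Q and 1654 to 3809 in the F test. The median member change ran from 0.16 to 0.37, from -0.072 to 0.018 and from -0.28 to -0.063 in the 118Q, Ctm and 11Q lines. Same-numbered mutants and wild types did not deviate together (r from -0.12 to 0.22), and not every array correlated best with its own number. A replicate block gave 77 calls in the 118Q line, 1 in the 11Q line and 281 in 118Q minus Ctm, and no member was called with it. Of single probe sets of members under all settings, 1824 values kept their side of the threshold and 40 moved. A call was gained by 29 and lost by 31, and 2 were called with the sign turned. That last count leaves out changes without a call whose sign turned. One was Mag in the 118Q line, at -0.22 without the third wild type, against 0.11 as reported. With 3 arrays in a group, changes of more than 3 standard errors went uncalled, such as that of Mbp 1451961_a_at in the 118Q line (1.16, SE 0.32).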

Other observations

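By the F test over wild types, 2 of 12 astrocyte and 2 of 13 microglia markers were called, against 10.6% of all probe sets. With the dimmer probe sets left out, this background share was 19.8%. Gfap, the intermediate filament of astrocytes, was higher in Ctm than in 11Q wild types by 1.08 (limma adjusted p 0.00447) and stood at -0.92 for 118Q minus Ctm wild types (0.0149). Slc1a3, the glutamate transporter of Bergmann glia, gave 0.60 (limma adjusted p 0.00680) and -0.70 (0.00330) in the same comparisons, and the microglial gene Laptm5 gave 0.58 (0.00827) and -0.63 (0.00647). In the opposite direction, Ctm minus 11Q wild types gave -0.46 for the adhesion gene Adam22 (limma adjusted p 0.00812). The same comparison gave -0.56 for Cntnap2 (limma adjusted p 0.0164) and -0.57 for Reln (0.00900). By the same F test, 5 of 15 precursor genes, 3 of 16 transcription factors and 1 of 37 other myelin genes were called. Gfap lost its call for 118Q minus Ctm wild types without the third 118Q wild type (limma adjusted p 0.0882) or the second Ctm wild type (0.0588). Adam22 and Cntnap2 lost theirs for Ctm minus 11Q wild types without the third Ctm wild type (limma adjusted p 0.0502 and 0.0651), and Cntnap2 also without the third 11Q wild type (0.0645).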
